A study of Apostichopus japonicus with 12 samples.

Results

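The RNA splicing factors of the sea cucumber Apostichopus japonicus were followed in the intestine under warming, low oxygen and both together. Members were the gene models whose Swiss-Prot name marks them as a heterogeneous or small nuclear ribonucleoprotein, a serine/arginine-rich protein, or a splicing, pre-mRNA-splicing or pre-mRNA-processing factor. This gave 87 models out of 26461 in the table, and 12030 models in all had a Swiss-Prot match to be searched. The rule reads names alone, but this family was picked for study with earlier results of these data known. Each name comes from the closest Swiss-Prot protein, so it belongs to another species: 31 members matched a human protein, and 11 species were matched in all.

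Each of the 12 libraries came from the intestine of 1 animal, sampled after 6 h, with 3 libraries in each of 4 groups. The high temperature group was held at 26 °C with 7 mg/L dissolved oxygen. The low oxygen group was held at 18 °C and brought to 3 mg/L with nitrogen gas. The combined group was held at 26 °C and 3 mg/L, and the control at 18 °C. For the control, the series text gives the same oxygen level as for the low oxygen group, so that level is treated as unknown here. No strain, sex or age is named. Whether animals of 1 group shared a tank is not stated either, so p-values measure the spread between these samples, which may be in part technical.

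Splicing removes introns from newly made transcripts. It is carried out by the spliceosome, which is built anew on each intron from small nuclear ribonucleoproteins (snRNPs), each a small RNA with a ring of Sm proteins and its own specific proteins. U1 binds the start of the intron, U2 with the SF3 and U2AF proteins binds the branch point and the end, and the tri-snRNP of U4, U6 and U5 then joins. RNA helicases and the Prp19 complex drive the rearrangements and the chemical steps, and a rarer minor spliceosome handles a small class of introns. SR proteins mostly promote and hnRNP proteins often repress the use of nearby splice sites, and in mammalian cells both families have been tied to the response to heat.

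The libraries held between 8146906 and 10855050 fragments, of which the 87 members took between 0.323% and 0.884%. The deposited values are FPKM, fragments per kilobase of model length scaled to a library size. Combined replicates 1 and 3 stood apart in that scaling: the library size that their FPKM imply was 0.529 and 0.526 of their total, against 0.935 to 1.58 in the other 10 libraries. Among markers of intestinal digestive cells, maltase and aminopeptidase N were present, while trypsin-1 and a chymotrypsin-like protease averaged at most 1.13 and 0.251 FPKM in any group. Of the 42 digestive models, 25 reached 1 FPKM in at least 3 libraries. Their summed level over all 42 lay between 279 and 975 FPKM in 11 libraries and was 2611 in control replicate 3. In that library the digestive models evm_TU_Chr2_1288 and evm_TU_Chr15_190 had 310 and 212 FPKM, against at most 10.1 and 2.66 FPKM in the other 11. In bulk tissue, fewer cells of a type and less RNA per cell cannot be told apart.

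Most splicing factors were present in every library. Of the 87 models, 78 reached 1 FPKM in all 12 libraries, and 86 passed the filter for testing (at least 1 FPKM in at least 3 libraries). The median of the members' mean levels was 12.6 FPKM, against 4.12 FPKM over all 15615 models tested. Mean levels were at least 100 FPKM for 5 members, between 10 and 100 for 48, and under 10 for 34. Among the 3 control animals the members' median coefficient of variation was 26.8%, against 48.7% over all models tested. The RNA recognition motif, the domain by which many of these proteins grip RNA, was annotated in 30 members.

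Levels differed by role. The hnRNP and SR proteins were the most abundant classes, with medians of 50.5 and 48.3 FPKM over their 11 and 12 models. The 7 Sm core proteins had a median of 31.7 FPKM. Medians were 13.1 FPKM for the 17 models of U2, SF3 and U2AF, 12.2 for the 6 of U1, 8.61 for the 4 RNA helicases, 7.39 for the 12 of the Prp19 complex and step factors, and 6.88 for the 11 of U4/U6, U5 and the tri-snRNP. The minor spliceosome was lowest, with 4 models between 0.864 and 2.67 FPKM. The 3 remaining models (Sfswap, ESS2 and wtap) lay between 1.64 and 10.6 FPKM.

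**Figure D1:**
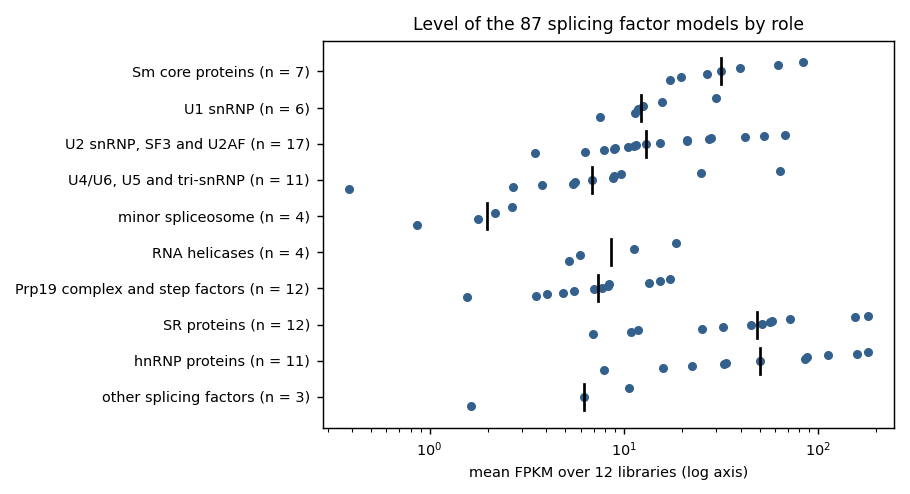
Mean FPKM over the 12 libraries (horizontal log axis) of each of the 87 splicing factor models, grouped by role; each point is a model and each bar the median of its role. SR and hnRNP proteins reach above 100 FPKM, while all 4 minor spliceosome models stay under 3.

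The 5 models above 100 FPKM were a pair of SR proteins and 3 hnRNP proteins. SRSF4 (model evm_TU_Chr2_885, chromosome 2, 26332516 to 26344266, minus strand, 8 exons) averaged 182 FPKM. HNRNPA1 (model evm_TU_Chr10_301, chromosome 10, 10048987 to 10060702, minus strand, 12 exons), which in mammals shuttles between nucleus and cytoplasm and blocks splice sites, averaged 181 FPKM. HNRNPA1L2 (model evm_TU_Chr10_303), SRSF3 (model evm_TU_Chr14_268) and Syncrip (hnRNP Q, model evm_TU_Chr19_132) averaged 160, 154 and 113 FPKM. In the other classes the most abundant members were SNRPB of the Sm ring at 83.8, SF3B1, which in mammals holds the branch point, at 67.8, snrnp27 of the tri-snRNP at 63.4, and snRNP-U1-70K at 30.02 FPKM. DHX15, a helicase that takes spliceosomes apart, led its class at 18.5 FPKM, PRPF19, the ubiquitin ligase of the Prp19 complex, at 17.4, Sfswap at 10.6, and SNRNP48 of the minor spliceosome at 2.67 FPKM.

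The members differed in how steady they were. HNRNPA1L2 was the steadiest of those tested, with 119 to 199 FPKM over the 12 libraries, a ratio of 1.67. The helicase DHX38 and the catalytic-core protein Prpf8 followed with ratios of 1.98 and 2.04. At the other end stood snRNP-U1-C (model evm_TU_Chr1_646), which ranged from 0.578 to 22.1 FPKM, a ratio of 38.2, and SNRPA1, the U2 A' protein, which ranged from 1.74 to 35.3 FPKM, a ratio of 20.2. SNRPA1 had its lowest and highest value in combined replicates 1 and 3, while its 3 control values were 7.53, 7.81 and 7.399 FPKM. Combined replicate 3 was the highest library for 34 of the 86 tested members, combined replicate 1 the lowest for 13, and low oxygen replicate 2 the lowest for 15. The 1 member that was not tested was a second PRPF38A model (evm_TU_Chr7_519), a tri-snRNP protein listed at 0 in 5 libraries and at most at 2.19 FPKM, in high temperature replicate 3.

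**Figure D2:**
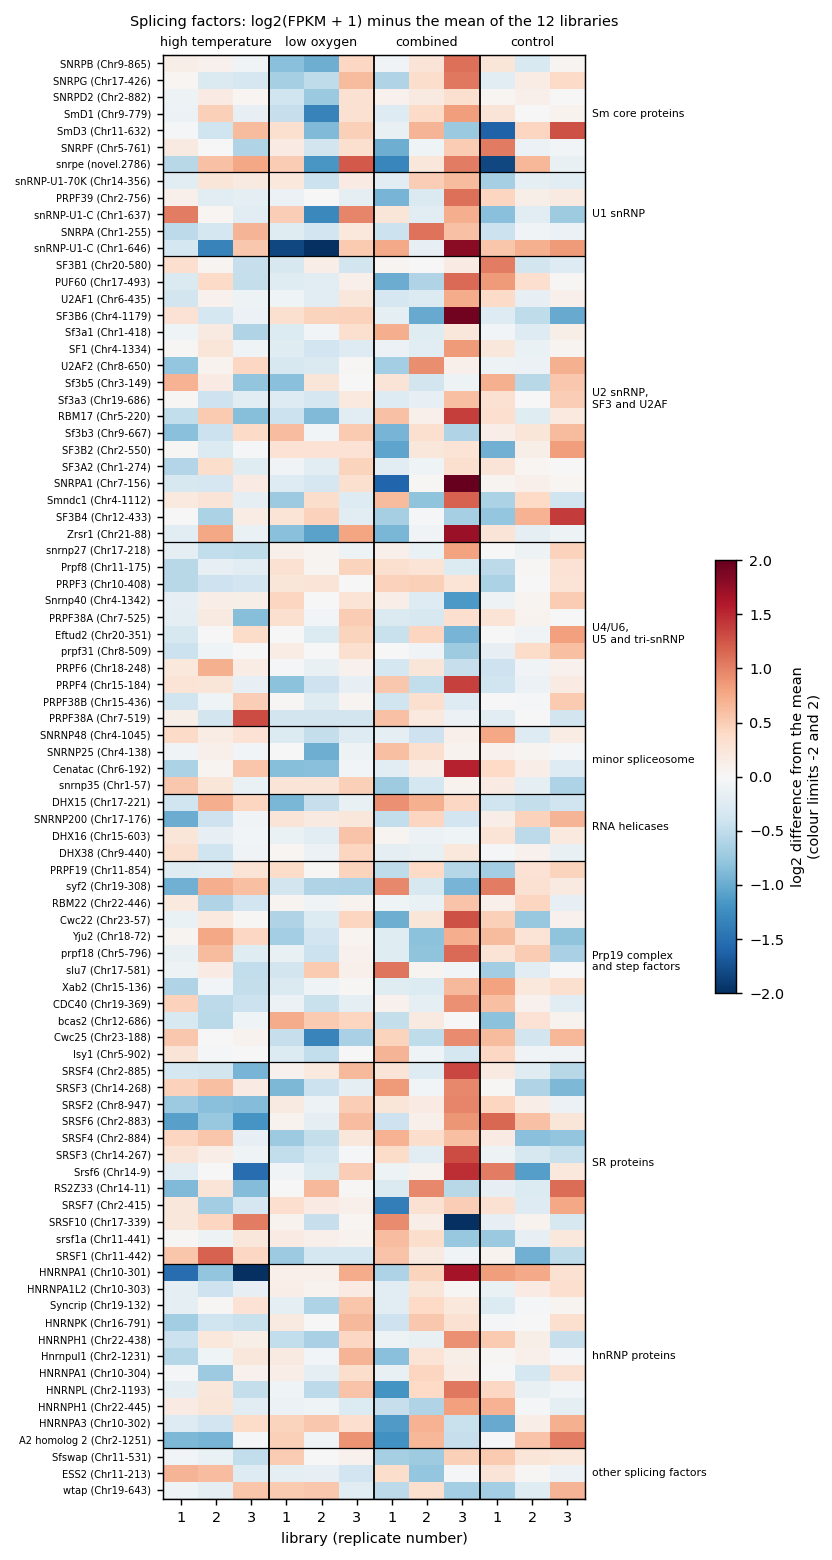
log2(FPKM + 1) of 86 of the 87 models (rows, grouped by role) minus its mean over the 12 libraries (columns, by group and replicate number); red is above and blue below the model's mean. Combined replicate 3 shows the most dark red cells, and SRSF6 (evm_TU_Chr2_883), SRSF2 and HNRNPA1 (evm_TU_Chr10_301) are blue in all 3 high temperature libraries.

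No splicing factor passed the test in any of the 7 comparisons made, with limma on log2(FPKM + 1) and p-values adjusted over all 15615 models at a threshold of 0.05. The comparisons set every treated group against control, the combined group against either stress alone, and both warm groups against both cool ones, and the last was the interaction of temperature with oxygen. Passing was rare at large: 0.0704% of all models (11) for high temperature against control, 0.0064% (1) for low oxygen, 0.788% (123) for the combined group, 0.218% and 0.423% for the combined group against high temperature and against low oxygen, 0.455% for temperature and 0.0512% for the interaction. A test on recovered fragment counts (limma voom) called no member either. It used the library sizes that the FPKM imply, so it shares their scaling and is no check on it. At an unadjusted p under 0.05 limma gave 8, 2, 3, 5, 6, 9 and 5 members in the order of these percentages, and voom 8, 2, 3, 5, 5, 9 and 6.

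The precision limits what this says. The median standard error of a member's log2 difference from control was 0.41. Its 95% interval lay wholly within 1 log2 unit either side of 0 for 17 of 86 members under high temperature, for 23 under low oxygen and for 18 in the combined group. Over both warm against both cool groups, with 6 libraries a side, it did so for 49 of 86. For the other members the interval also held differences of over 1 log2 unit.

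High temperature animals were set against control animals at the lower temperature; as the control's oxygen level is unknown, these groups may differ in oxygen too. The members' median log2 difference was -0.12, against -0.01 over all models, with 30 members above 0 and 56 below. At an unadjusted p under 0.05 there were 8 members (9.30%), against 6.58% of all models. High temperature and control libraries did not overlap for 19 members (22.1%), against 14.1% of all models. Of these, 7 had higher values in the warm animals, against 6.87% of all models, and 12 had lower values, against 7.24%.

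The 5 smallest p-values belonged to 4 SR or hnRNP proteins and 1 helicase. SRSF6 (model evm_TU_Chr2_883, chromosome 2, 26297097 to 26311903, minus strand, 9 exons), an SR protein, had 23.5, 29.9 and 21.9 FPKM in high temperature libraries, against 114, 77.3 and 60.7 FPKM in control libraries. All warm values lay under all control values, the log2 difference was -1.67 (SE 0.41), and limma's adjusted p was 0.235. HNRNPA1 (model evm_TU_Chr10_301) had 49.7, 83.7 and 34.9 FPKM in high temperature libraries, against 261, 247 and 180 FPKM in control libraries. These groups did not overlap either, with a log2 difference of -2.08 (SE 0.54) and an adjusted p of 0.259 (limma).

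SRSF2 (model evm_TU_Chr8_947), an SR protein that in mammals binds exonic enhancers, had 40.3, 37.3 and 36.5 FPKM in high temperature libraries, against 91.2, 73.9 and 61.9 FPKM in control libraries. Its warm values were tightly grouped below the control range, at a log2 difference of -0.96 (SE 0.35, adjusted p = 0.585, limma). SNRNP200 (model evm_TU_Chr17_176), the U5 helicase that unwinds U4 from U6, had 4.89, 7.80 and 10.1 FPKM in high temperature libraries, against 11.8, 15.1 and 17.6 FPKM in control libraries, a log2 difference of -0.91 (SE 0.37, adjusted p = 0.663, limma). SRSF1 (model evm_TU_Chr11_442), a founding member of the SR family, had the opposite sign, with 9.69, 15.5 and 8.72 FPKM in high temperature libraries, against 6.67, 2.74 and 4.14 FPKM in control libraries. Its log2 difference was 1.18 (SE 0.38, adjusted p = 0.492, limma), again with no overlap.

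Weighting the libraries by their estimated reliability (limma arrayWeights) was the 1 setting that put members past the threshold. It called 3 members in this comparison: HNRNPA1 at -2.18 (adjusted p = 0.0126), SRSF6 at -1.63 (adjusted p = 0.0181) and SRSF1 at 1.52 (adjusted p = 0.0308). In that fit control replicate 2 alone had a weight of 5.46, against 0.334 to 1.84 for the other 11 libraries, and the count over all models was 205 in place of 11.

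**Figure D3:**
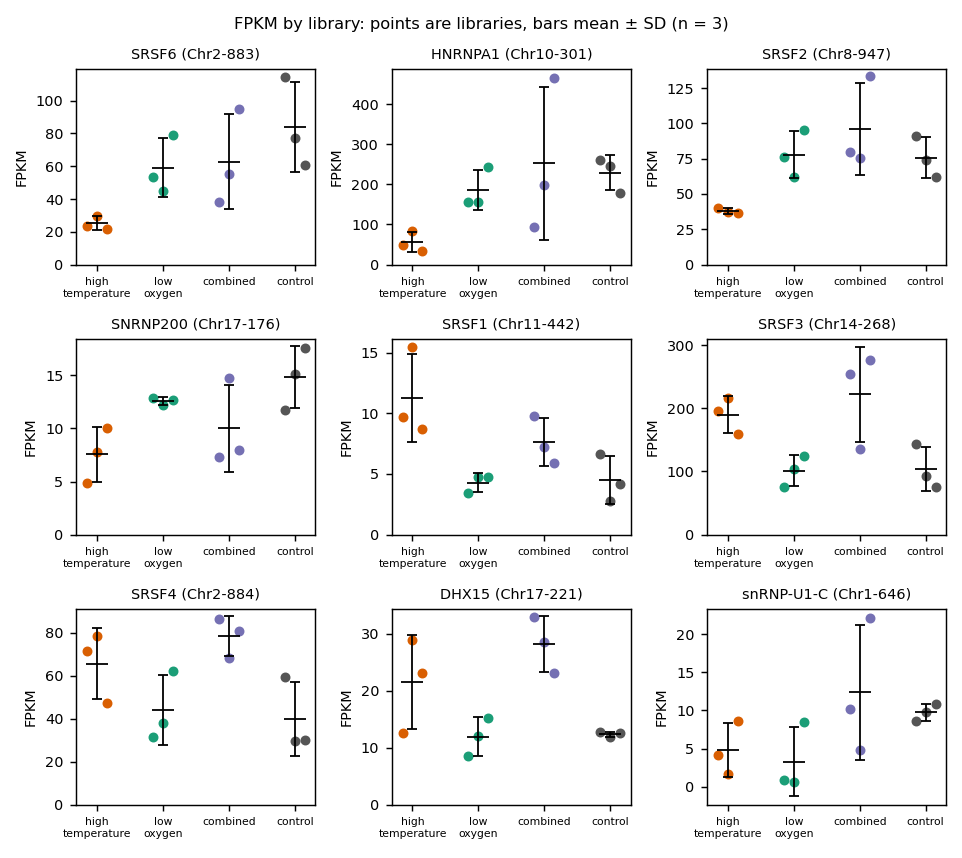
FPKM by library of 9 members, in high temperature, low oxygen, combined and control animals (left to right); points are libraries, horizontal lines group means and bars 1 SD either side (n = 3). SRSF6, HNRNPA1 and SRSF2 are low in all 3 high temperature libraries, and DHX15 is high in all 3 combined libraries.

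By role, the hnRNP proteins had negative high temperature differences for 10 of 11 models (median -0.21), U2 with SF3 and U2AF for 13 of 17 (median -0.23), and the tri-snRNP for 8 of 10 tested (median -0.24), against 7867 of 15615 models in all. The SR proteins were split, 6 above 0 and 6 below, from -1.67 to 1.18. In the other classes the smallest p-values belonged to Xab2 (the Prp19-associated SYF1 protein) at -0.82 (SE 0.37), snRNP-U1-C (model evm_TU_Chr1_637) at 0.88 (SE 0.56), snrnp27 at -0.51 (SE 0.34), Sf3b3 at -0.63 (SE 0.43), Sfswap at -0.55 (SE 0.38), SNRPF at -0.43 (SE 0.46) and snrnp35 at 0.42 (SE 0.36). Their adjusted p-values (limma) lay between 0.734 and 0.948.

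Low oxygen animals were set against control animals at the same temperature. As the control's oxygen level is unknown, these groups may not differ in oxygen. This comparison gave the fewest members at an unadjusted p under 0.05, 2 of 86 (2.33%), against 6.3% of all models. The members' median log2 difference was -0.09, against 0.01 over all models, with 32 members above 0 and 54 below. Low oxygen and control libraries did not overlap for 11 members (12.8%), against 16.2% of all models. The Sm core and minor spliceosome models lay mostly below 0, at 6 of 7 (median -0.28) and 3 of 4 (median -0.48).

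U1-C, the protein that steadies U1 on the start of the intron, had the smallest p. Its model evm_TU_Chr1_646 (chromosome 1, 25834761 to 25844303, minus strand, 6 exons) had 0.860, 0.578 and 8.47 FPKM in low oxygen libraries, against 8.66, 9.79 and 10.9 FPKM in control libraries. Low oxygen replicates 1 and 2 were near 0, while replicate 3 lay just under the control range. The log2 difference was -1.83 (SE 0.71, adjusted p = 0.728, limma), and leaving out 1 low oxygen library at a time gave -1.47, -1.36 and -2.65. This model overlaps a model on the opposite strand, and no step of library making that marks the strand is named, so reads of the pair cannot be told apart. The other U1-C model, evm_TU_Chr1_637, had 15.2, 3.72 and 21.6 FPKM in low oxygen libraries, against 5.43, 8.81 and 6.02 FPKM in control libraries.

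Cwc25, a factor of the first chemical step in yeast, had 2.03, 0.661 and 1.65 FPKM in low oxygen libraries, against 5.44, 2.22 and 5.60 FPKM in control libraries, a log2 difference of -1.12 (SE 0.46, adjusted p = 0.749, limma). Syf2, a further Prp19-associated factor, had 10.2, 8.59 and 8.48 FPKM in low oxygen libraries, against 28.6, 17.0 and 15.4 FPKM in control libraries. Bcas2, the SPF27 subunit of the Prp19 complex, had the opposite sign, with 7.005, 5.86 and 5.41 FPKM in low oxygen libraries, against 1.69, 4.80 and 4.02 FPKM in control libraries. SF3B6, which in mammals contacts the branch point, had 29.8, 32.7 and 32.9 FPKM in low oxygen libraries, against 19.7, 16.4 and 11.3 FPKM in control libraries. None of these 4 overlapped between the groups, and for the last 3 the log2 differences were -1.03 (SE 0.55), 0.72 (SE 0.38) and 0.999 (SE 0.59), at adjusted p-values of 0.795 to 0.817 (limma).

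SRSF6 and HNRNPA1, the members with the smallest p under warming, stood nearer to control under low oxygen. SRSF6 had 53.7, 44.7 and 79.2 FPKM in low oxygen libraries, overlapping the control range, at a log2 difference of -0.49 (SE 0.41, adjusted p = 0.856, limma). HNRNPA1 (model evm_TU_Chr10_301) had 157, 157 and 244 FPKM there, also overlapping the control range. These comparisons share the control libraries. In the remaining classes the smallest p-values belonged to SNRNP48 at -0.56 (SE 0.35), the Sm ring protein SmD1 at -0.60 (SE 0.45), Prpf8 at 0.33 (SE 0.34), HNRNPA3 at 0.49 (SE 0.52), wtap at 0.36 (SE 0.45) and SNRNP200 at -0.20 (SE 0.37), with adjusted p-values of 0.828 to 0.929 (limma).

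In animals under warming and low oxygen together, 3 members (3.49%) had an unadjusted p under 0.05, against 13.8% of all models. All 3 had higher values in combined animals, against 6.65% of all models with that sign. Combined and control libraries did not overlap for 5 members (5.81%), against 14.4% of all models. All 5 had higher values in combined animals, against 6.36% of all models, and DHX15, SRSF4 (model evm_TU_Chr2_884), PRPF3 and snRNP-U1-C (model evm_TU_Chr1_637) were among them. The median log2 difference was -0.01, against -0.05 over all models, with 42 members above 0 and 44 below. These counts and signs depended on how the libraries were scaled. With every library rescaled to the same total, the median of all models was -0.63, that of the members -0.74, and 4 of 86 members lay above 0. At an unadjusted p under 0.05 there were then 26 members (30.2%), all with lower values in combined animals, against 24.1% of all models, and the smallest adjusted p was 0.0835 (limma).

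**Figure D4:**
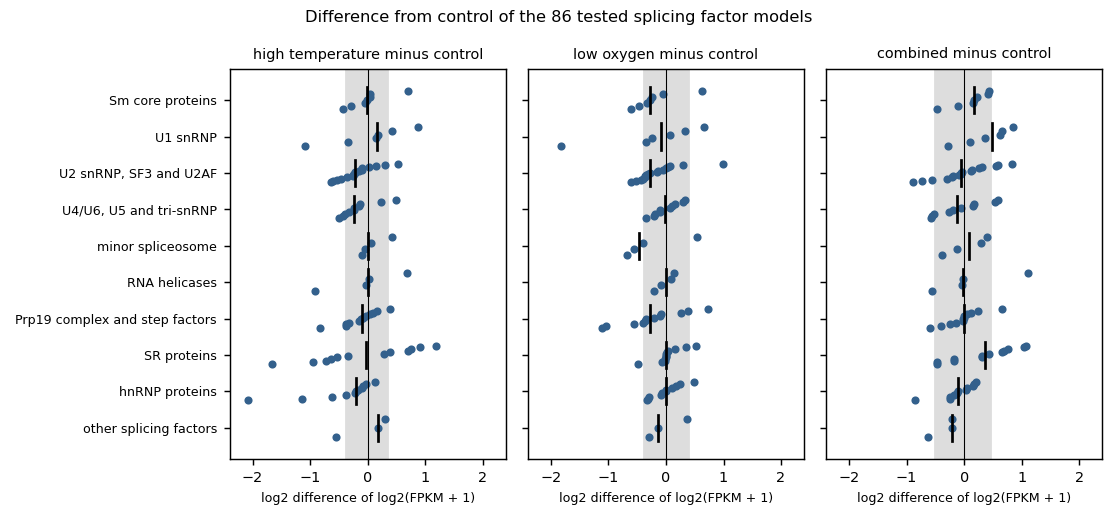
log2 difference from control of the 86 tested members (horizontal axis) by role, for high temperature, low oxygen and combined animals; each point is a member, black bars are role medians, and the grey band runs from the 25th to the 75th percentile of all 15615 models. HNRNPA1 and SRSF6 lie farthest left under high temperature, and DHX15 farthest right in the combined group.

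DHX15 (model evm_TU_Chr17_221, chromosome 17, 8107038 to 8122209, plus strand, 12 exons) had the smallest p of this comparison. It had 32.9, 28.5 and 23.0 FPKM in combined libraries, against 12.7, 11.9 and 12.6 FPKM in control libraries. All combined values were above the narrow control range, at a log2 difference of 1.11 (SE 0.37, adjusted p = 0.226, limma), which was 0.26 with libraries rescaled to equal totals. Without combined replicates 1 and 3, which leaves 1 combined library, the value was 1.14.

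SRSF3, the smallest SR protein in mammals, is represented by a pair of models that lie 1875 bases apart on chromosome 14. The more abundant one (evm_TU_Chr14_268) had 255, 136 and 276 FPKM in combined libraries, against 143, 92.6 and 75.6 FPKM in control libraries, a log2 difference of 1.08 (SE 0.40, adjusted p = 0.269, limma). The groups overlapped, and the difference was 0.44 without combined replicates 1 and 3 (1 combined library left) and 0.18 after rescaling. The other (evm_TU_Chr14_267) had 62.7, 41.4 and 121 FPKM in combined libraries, against 45.3, 38.6 and 35.4 FPKM in control libraries, a log2 difference of 0.77 (SE 0.39), which was 0.06 without those 2 libraries and -0.12 after rescaling. SRSF4 (model evm_TU_Chr2_884) had 86.2, 68.2 and 80.6 FPKM in combined libraries, against 59.5, 29.3 and 30.2 FPKM in control libraries. It did not overlap between the groups, at a log2 difference of 1.04 (SE 0.40, adjusted p = 0.276, limma), which was 0.15 after rescaling. The more abundant SRSF4 model (evm_TU_Chr2_885) did overlap. It had 199, 139 and 425 FPKM in combined libraries, against 189, 141 and 113 FPKM in control libraries.

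snRNP-U1-70K, which binds the U1 RNA and contacts SR proteins, had 24.7, 41.4 and 45.4 FPKM in combined libraries, against 18.0, 25.5 and 25.1 FPKM in control libraries, a log2 difference of 0.65 (SE 0.36, adjusted p = 0.449, limma) that was -0.22 after rescaling. Of the U1 models 5 of 6 lay above 0 (median 0.49) and of the SR proteins 8 of 12 (median 0.37), against 7370 of 15615 models in all. After rescaling the U1 and SR counts were 1 of 6 (median -0.35) and 2 of 12 (median -0.47). The other classes' smallest p-values belonged to SF3B4 at -0.90 (SE 0.51), the hnRNP A2 homolog 2 at -0.86 (SE 0.51), slu7 at 0.66 (SE 0.41), Sfswap at -0.63 (SE 0.38), PRPF3 at 0.53 (SE 0.33), SNRPF at -0.47 (SE 0.46) and SNRNP48 at -0.38 (SE 0.35). Their adjusted p-values (limma) lay between 0.461 and 0.688. After rescaling PRPF3 and slu7 had the opposite sign, at -0.29 and -0.13, and the other 5 lay farther below 0, between -1.59 and -0.97. snRNP-U1-C (model evm_TU_Chr1_637), at 0.85 as deposited, was then at 0.03.

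Setting both warm groups against both cool groups pools 6 libraries a side. At an unadjusted p under 0.05 there were 9 members (10.5%), against 11.5% of all models. After rescaling there were 24 (27.9%), 23 of them with lower values in warm libraries, against 17.5% of all models.

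The smallest p-values for temperature belonged to DHX15 and SRSF3 (model evm_TU_Chr14_268), at log2 differences of 0.93 (SE 0.26) and 0.997 (SE 0.28), both at an adjusted p of 0.213 (limma). DHX15 had 12.6, 28.8 and 23.1 FPKM in high temperature libraries and 8.52, 12.1 and 15.2 FPKM in low oxygen libraries, so that 1 warm library lay within the cool range. SRSF3 had 195, 216 and 159 FPKM in high temperature libraries and 75.6, 104 and 124 FPKM in low oxygen libraries, and here 1 combined library lay under the highest control value. SRSF1, SRSF4 (model evm_TU_Chr2_884) and SRSF6 followed at 0.94 (SE 0.27), 0.81 (SE 0.28) and -0.82 (SE 0.29), with adjusted p-values of 0.224 to 0.331 (limma). After rescaling the 5 values were 0.47 for DHX15, 0.50 for SRSF3, 0.53 for SRSF1, 0.33 for SRSF4 and -1.31 for SRSF6. The more abundant SRSF4 model (evm_TU_Chr2_885) overlapped between warm and cool libraries. It had 130, 130 and 87.1 FPKM in high temperature libraries and 176, 192 and 263 FPKM in low oxygen libraries. SR proteins were thus among the smallest p-values with either sign, and the median over all 86 members was -0.01, against -0.03 over all models; after rescaling it was -0.43, against -0.36.

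The combined group was also set against each single stress. Against high temperature, 5 members (5.81%) had an unadjusted p under 0.05, against 6.65% of all models, all 5 with higher values in combined libraries, against 3.87%, and 8 members (9.30%) did not overlap, against 9.5% of all models. SRSF2 had 79.4, 75.3 and 133 FPKM in combined libraries, against the 36.5 to 40.3 FPKM of high temperature libraries given above, a log2 difference of 1.27 (SE 0.35). HNRNPA1 (model evm_TU_Chr10_301) had 94.96, 199 and 465 FPKM in combined libraries, against 34.9 to 83.7 FPKM in high temperature libraries, a difference of 1.95 (SE 0.54), and both had an adjusted p of 0.351 (limma). SRSF6 had 38.3, 55.3 and 94.8 FPKM in combined libraries, against 21.9 to 29.9 FPKM in high temperature libraries, a difference of 1.20 (SE 0.41, adjusted p = 0.565, limma). These 3 were named above for low values in the same high temperature libraries, so this comparison is not separate evidence on them. In each of these 3 the lowest combined value was above the highest high temperature value. After rescaling the differences were 0.40 for SRSF2, 1.09 for HNRNPA1 and 0.35 for SRSF6. The members' median here was 0.17, against -0.01 over all models, and -0.60, against -0.59, after rescaling. With that rescaling 11 members (12.8%) had an unadjusted p under 0.05, all with lower values in combined libraries, against 15.6% of all models.

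Against low oxygen, 6 members (6.98%) had an unadjusted p under 0.05, against 12.4% of all models, and 12 (14%) did not overlap, against 15.6%. The members' median was 0.15, against -0.02 over all models, and -0.73, against -0.64, after rescaling. With that rescaling 25 members (29.1%) had an unadjusted p under 0.05, all with lower values in combined libraries, against 24.5% of all models. DHX15 led again at 1.19 (SE 0.37, adjusted p = 0.310, limma). RBM17 (splicing factor 45) had 16.1, 11.1 and 28.7 FPKM in combined libraries, against 7.43, 5.17 and 8.84 FPKM in low oxygen libraries, a log2 difference of 1.20 (SE 0.45, adjusted p = 0.347, limma). After rescaling these were 0.28 for DHX15 and 0.31 for RBM17.

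The interaction sets the temperature difference between combined and low oxygen animals against that between high temperature and control animals. The control's unknown oxygen level limits this comparison too. Of the members, 5 (5.81%) had an unadjusted p under 0.05, against 6.56% of all models, all 5 positive, against 4.12%, and the smallest adjusted p was 0.670 (limma). They were snRNP-U1-C (model evm_TU_Chr1_646) at 3.01 (SE 1.003), HNRNPA1 (model evm_TU_Chr10_301) at 2.26 (SE 0.76), SRSF6 at 1.69 (SE 0.58), RBM17 at 1.56 (SE 0.64) and SRSF2 at 1.23 (SE 0.49). After rescaling they were 2.26 for snRNP-U1-C, 1.33 for HNRNPA1, 0.78 for SRSF6, 0.70 for RBM17 and 0.30 for SRSF2, and of the 5 members then under that p 4 were negative. Of all 86 members 62 were positive, with a median of 0.28 against 0.00 over all models, and 11 were positive after rescaling, with a median of -0.56 against -0.63. The 95% interval lay within 1 log2 unit either side of 0 for no member. HNRNPA1, SRSF6 and SRSF2 enter with the same high temperature libraries as above, so their values here are not separate evidence.

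Several members are neighbours in the genome. On chromosome 2 the Sm protein SNRPD2, SRSF6 and the pair of SRSF4 models follow each other with no model between them, at gaps of 522, 6368 and 535 bases. On chromosome 10 HNRNPA1, HNRNPA3, HNRNPA1L2 and a second HNRNPA1 model (evm_TU_Chr10_304) follow each other at gaps of 8471, 13528 and 14375 bases, all on the minus strand. On chromosome 11 srsf1a and SRSF1 lie 2820 bases apart on opposite strands. In all, 7 Swiss-Prot names were given to 14 members, a pair each, and no source used here says how reads that fit both copies were counted. Levels of single copies are therefore uncertain.

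Within the chromosome 2 group the values did not move together, and the ratio of neighbours inside a library does not depend on how that library was scaled. SRSF4 (model evm_TU_Chr2_884) over SRSF6 was 3.04, 2.62 and 2.15 in high temperature libraries, 0.589, 0.848 and 0.786 in low oxygen libraries and 2.25, 1.23 and 0.850 in combined libraries, against 0.520, 0.380 and 0.497 in control libraries. No group of treated animals overlapped the control in this ratio, and the high temperature ratios were all above 1, against control ratios all below it. SNRPD2, beside them, had 36.01, 43.8 and 39.7 FPKM in high temperature libraries, against 39.9, 41.8 and 38.7 FPKM in control libraries. These ratios were chosen after the values were seen and were not tested.

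HNRNPA1 over its neighbour HNRNPA1L2 was 0.359, 0.705 and 0.248 in high temperature libraries, 0.909, 0.946 and 1.37 in low oxygen libraries and 0.703, 1.07 and 2.91 in combined libraries, against 1.80, 1.39 and 0.904 in control libraries. The high temperature ratios were all under the control ones, while those of the other groups overlapped them. The second HNRNPA1 model had 31.9, 19.6 and 35.0 FPKM in high temperature libraries, against 33.2, 25.7 and 40.9 FPKM in control libraries, so the pair sharing that name differed in pattern. SRSF1 over srsf1a was 0.910, 1.59 and 0.702 in high temperature libraries and 0.529 to 1.03 in combined libraries, against 1.14, 0.298 and 0.336 in control libraries, where 1 library overlapped the warm ones. In low oxygen libraries that ratio was 0.287 to 0.427.

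**Figure D5:**
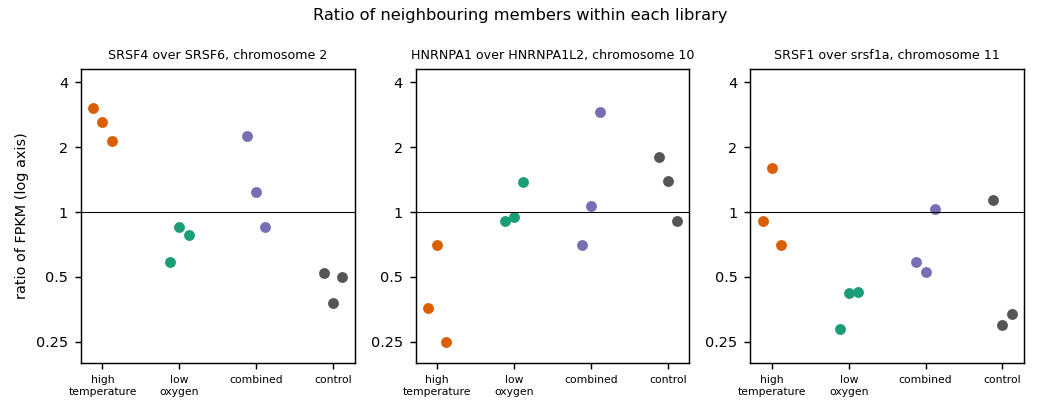
Ratio of FPKM of neighbouring members within each library (log axis) for 3 pairs, by group; each point is a library and the line marks a ratio of 1. SRSF4 over SRSF6 lies between 2.15 and 3.04 in high temperature animals and between 0.380 and 0.520 in control animals.

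Genes that serve splicing but lie outside the naming rule were read from 6 lists: LSm proteins of the U6 RNA (10 models tested), kinases that phosphorylate SR proteins (4), the exon junction complex (4), snRNP assembly factors (7), other splicing regulators (9) and mRNA export factors (9). None of these 43 passed the test in any comparison (limma). At an unadjusted p under 0.05 limma gave 1, 0 and 1 of 43 for high temperature, low oxygen and combined against control. The shares of all models were 6.58%, 6.3% and 13.8%. For temperature it gave 5 of 43, against 11.5% of all models, and for combined against low oxygen 4, against 12.4%. Combined against high temperature gave 1, against 6.65%, and the interaction 0, against 6.56%. Their median log2 differences from control were 0.00 under high temperature, -0.06 under low oxygen and -0.11 in the combined group. TRA2B, an SR-like protein that activates exons, was picked from the 9 regulators after the values were seen. Its warm values all lay above its cool ones, and the share of all models that do so is not given here. It had 76.5, 150 and 107 FPKM in high temperature libraries and 103, 104 and 118 FPKM in combined libraries, against 37.9, 46.2 and 69.4 FPKM in low oxygen libraries and 67.5, 49.3 and 59.7 FPKM in control libraries. Its log2 difference for temperature was 0.99 (SE 0.26, adjusted p = 0.159, limma), and 0.50 after rescaling. CLK2, a kinase of SR proteins, averaged 60.1 ± 24.8 FPKM under high temperature, 48.3 ± 12.5 under low oxygen and 49.6 ± 39.6 in the combined group, against 55.3 ± 12.5 FPKM in control (SD, n = 3 each).

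Of the 25 digestive cell models tested, 18 lay below 0 under high temperature (median log2 difference from control -0.84). The counts were 16 under low oxygen (-0.65) and 20 in the combined group (-0.64), with none past the threshold. Control replicate 3 had the highest digestive sum, at 2611 FPKM. Markers of other cells differed between the libraries too. Of 63 ciliated cell models tested, 60 lay above 0 under high temperature (median log2 difference 0.73), 56 under low oxygen (0.38) and 60 in the combined group (1.10), with none past the threshold. Their summed level was 306 to 477 FPKM in high temperature animals, 225 to 334 in low oxygen animals and 247 to 1546 in combined animals, against 125 to 241 FPKM in control animals. The summed coelomocyte markers reached 2920 FPKM in combined replicate 1, against 263 to 802 in the other 11 libraries. Most single coelomocyte models went the other way. Of 11 tested, 9 lay below 0 under high temperature (median log2 difference -0.51). The counts were 6 under low oxygen (-0.36) and 7 in the combined group (-0.56), with none past the threshold. Connective tissue markers summed to 1202 to 1507 FPKM in the combined group, against 786 to 915 FPKM in control, with 1 of 20 past the threshold (SPARC). Dividing cell markers overlapped between all groups, at 88.0 to 112 FPKM in high temperature animals, 72.0 to 125 in low oxygen animals and 49.2 to 150 in combined animals, against 57.2 to 136 FPKM in control animals. Muscle markers summed to 331 to 424 FPKM in combined animals, against 238 to 296 FPKM in control animals, with 6 of 8 above 0 (median log2 difference 0.69) and none past the threshold. Neuron markers summed to 235 ± 149 FPKM in high temperature animals, 186 ± 41.0 in low oxygen animals and 203 ± 60.1 in combined animals, against 404 ± 236 FPKM in control animals (SD, n = 3 each), and germ line markers to 32.8 ± 6.58, 36.6 ± 0.544 and 28.4 ± 6.64, against 32.1 ± 3.38 FPKM in control animals, with none past the threshold. All these marker sums and differences are of FPKM as deposited and were not rescaled to equal totals. The library sizes implied by the FPKM were 0.529, 0.935 and 0.526 of the totals in combined libraries, against 0.979, 1.27 and 1.37 in control libraries. Rescaling multiplies the FPKM of each library in proportion to that share. After it, neither the connective tissue nor the muscle sums of combined animals would all lie above control. The part of these cells in the splicing factor values was not tested.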

How the data were processed

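The intestine of 12 animals was sequenced, 3 per group. Per the labels' protocols, mRNA was purified from total RNA, primed with random hexamers and sequenced on an Illumina HiSeq; no strand-marking step is named. The deposited table gives FPKM per gene model, per the file headers, and the deposited annotation gives exons. No source used here names the aligner, the counting tool or the genome build; coordinates are the table's, counted from 1. FPKM times model length gave whole fragments for 100% of values (tolerance 0.001 fragments), hence the depths and the voom alternative.

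Values were analysed as log2(FPKM + 1), so fold changes of low genes are understated. The filter kept models that reached 1 FPKM in 3 or more libraries. One limma fit (limma 3.58.1, R 4.3.3; eBayes with trend) to all 12 libraries gave 7 two-sided contrasts, adjusted by Benjamini-Hochberg over all 15615 models; the same code was tested on simulated data. An exact permutation test of 3 libraries against 3 cannot go below 0.1. Tables and figures used Python 3.11.15, pandas 2.3.3 and matplotlib 3.10.9.

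The members and lists were chosen with earlier results of these data known. Named genes are, per contrast with control and for temperature, the 5 members with the smallest p, and, per role, the most abundant member and the one with the smallest p in each contrast with control; members singled out for steadiness, overlap, copies or neighbours were chosen after their values were seen. The values of 1 member are not reported here. Alternatives were another pseudocount, 2 other filters, rescaling, voom, library weights, a replicate block, the compared groups alone and leaving out libraries.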

Additional observations from a re-analysis of the deposited data

How the results depend on the processing

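With 3 animals a group, the count of splicing factors past the threshold was 0 in every comparison and stayed 0 under all alternatives run except library weights, which called 3 for high temperature against control; leaving out each library in turn gave 0 to 0. Leaving out combined replicates 1 and 3 was an alternative chosen after seeing the data. It leaves 1 combined library, so only differences are given for it. Rescaling to equal totals turned the sign of SRSF3 (model evm_TU_Chr14_267) to -0.12 and of snRNP-U1-70K to -0.22 in combined against control, and among the other genes named there that of PRPF3 to -0.29 and of slu7 to -0.13. It also moved the member medians of every comparison that uses the combined group, as given with each. Of 415 values of 20 named results under alternatives, 410 kept both their direction and their side of the threshold. All 20 were short of the threshold as reported, so keeping their side means only staying short of it. Adjusted p-values moved widely, for HNRNPA1 under high temperature from 0.0126 to 0.706 (limma). With the replicate number as a block, the count was 0 in every comparison. Deviations of same-numbered libraries from their group means correlated at -0.170 to 0.178 (median 0.067, 18 pairs). Those of different-numbered libraries correlated at -0.370 to 0.384 (median -0.009, 36 pairs), so the numbers gave no sign of pairing. Whether same-numbered animals shared a tank or batch cannot be read from these values. Counts over all models moved more: over the alternatives that keep all libraries they ran from 6 to 205 for high temperature against control (11 as reported), 0 to 185 for low oxygen (1), 30 to 128 for combined (123), 2 to 43 and 22 to 80 for combined against high temperature (34) and against low oxygen (66), 28 to 176 for temperature (71) and 0 to 23 for the interaction (8). The highest of these counts came with library weights, except 43 with the replicate block.
Leaving out 1 library at a time, they ran from 0 to 23 for high temperature against control, 0 to 6 for low oxygen, 27 (without combined replicate 1) to 182 (without combined replicate 3) for combined, 12 to 39 and 21 to 77 for combined against high temperature and against low oxygen, 48 to 127 for temperature and 0 to 11 for the interaction.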
